A study of Mus musculus with 30 samples.

Results

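Kruppel-like factors are zinc finger transcription factors, and 8 of them (Klf2, Klf3, Klf4, Klf6, Klf7, Klf9, Klf10 and Klf13) that are linked to lymphocyte quiescence were followed here by name. All 8 were found in both expression tables of the study, which together list 28279 gene names. RNA-seq was done on splenic B cells of C57BL/6 mice with a conditional knock-in of an Ikzf3 missense mutation, restricted to their B cells, and on those of wild-type mice. Ikzf3 encodes Aiolos, a zinc finger factor of the Ikaros family, and the driver of the recombinase is not named in the sources used here. The young set holds 3 wild-type and 3 homozygous (Ikzf3 fl/fl) libraries at 2 to 3 months of age. The aged set, at 15 to 18 months, holds 3 wild-type libraries, 4 libraries of non-CLL B cells taken from mutant animals and 5 of CLL cells, which resemble chronic lymphocytic leukaemia and were sorted as B220-positive and CD5-positive. CLL libraries 1, 2, 4 and 5 and non-CLL libraries 2, 4 and 5 are heterozygous (Ikzf3 fl/+), and CLL library 6 and non-CLL library 6 are homozygous (Ikzf3 fl/fl). CLL and non-CLL libraries of the same number come from the same mouse, and CLL library 1 has no partner. The labels do not say that the young libraries come from separate animals, so the p-values of that comparison measure the spread between libraries, which may be technical.

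Proteins of this family bind GC-rich and CACCC-type DNA through their C-terminal zinc fingers, and most of them either activate or repress depending on the cofactor. Klf2 holds resting T and B cells in a non-dividing state and controls their traffic through receptors such as S1pr1. Klf4 restrains division of B cells and is a target of FOXO factors, and Klf9 slows the entry of resting B cells into division. Klf3 is a repressor that works with CtBP, Klf10 was found as a gene induced early by TGF-beta, Klf6 is induced rapidly in many cell types after stimulation, and Klf13 regulates cytokine and chemokine genes in lymphocytes.

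The 250 bases before the start of Klf2, Klf4 and Klf6 are shown because these 3 members changed most in young mutant B cells. The sequences are from RefSeq on GRCm38.p6, the assembly of mm10. They lie at chr8:72318812-72319061 on the plus strand for Klf2, chr4:55532476-55532725 on the minus strand for Klf4 and chr13:5861239-5861488 on the plus strand for Klf6, and each is printed 5′ to 3′ toward the gene. Capitals mark GGGCGG (the GC box), CACCC and the MEF2 site, each on either strand.
Klf2: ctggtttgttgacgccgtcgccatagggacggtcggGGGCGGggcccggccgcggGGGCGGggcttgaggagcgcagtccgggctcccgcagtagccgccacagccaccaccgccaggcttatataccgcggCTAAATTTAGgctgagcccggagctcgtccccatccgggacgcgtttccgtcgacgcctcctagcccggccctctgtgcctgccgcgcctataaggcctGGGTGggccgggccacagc
Klf4: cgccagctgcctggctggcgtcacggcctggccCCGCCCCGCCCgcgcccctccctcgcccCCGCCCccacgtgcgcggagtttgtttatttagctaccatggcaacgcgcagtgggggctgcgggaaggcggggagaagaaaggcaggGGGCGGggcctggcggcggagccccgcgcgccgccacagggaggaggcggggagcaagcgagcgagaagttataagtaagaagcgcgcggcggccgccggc
Klf6: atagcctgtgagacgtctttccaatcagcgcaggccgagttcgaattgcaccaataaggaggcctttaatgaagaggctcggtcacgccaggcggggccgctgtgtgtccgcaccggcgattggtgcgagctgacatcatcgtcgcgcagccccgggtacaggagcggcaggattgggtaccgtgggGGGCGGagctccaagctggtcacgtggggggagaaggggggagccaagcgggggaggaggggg
The Klf2 stretch holds GGGCGG 2 times, CACCC 1 time (as its complement) and 1 MEF2 site, which begins 118 bases before the start. MEF2 factors are known as activators of Klf2 downstream of ERK5. The Klf4 stretch holds GGGCGG 4 times, and the Klf6 stretch holds it 1 time. Among 32851 promoters of this length, GGGCGG is in 32.7%, CACCC in 52% and the MEF2 site in 2.92%. RefSeq promoters were matched for 7 of the 8 members. Of these 7, 6 hold GGGCGG and 5 hold CACCC, and the letters of the pair can overlap, as they do in Klf3 and Klf13. TGGGAA, which holds the GGGAA core that Ikaros-family proteins bind, is in none of the 7 and in 21.6% of all promoters. The shorter GGGAA was not counted, and it does occur, for example in the Klf4 stretch above. GTAAACA, a FOXO-type site, is in Klf9 and in 3.17% of all promoters. TGANTCA, a looser form of the AP-1 site that allows any middle base, is in Klf9 and in 6.75% of all promoters. The Klf9 match is TGAATCA, whose middle A is not the C or G of the AP-1 site. Neither TGACGTCA (1.55% of promoters) nor a CArG box (1.47%) is in any of the 7. A match of letters is a description and not a measured binding site.

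All values are TPM (transcript abundance scaled by gene length, with a fixed total per library) and the depth in reads is unknown. The 2 tables differ in scale, so levels and tests were kept within a table. Genes that reached 1 TPM in a number of libraries equal to the size of the smaller group were compared as log2(TPM + 1) with limma, and a gene is called higher or lower at an adjusted p under 0.05. A log2 change on this scale understates the change of low genes. None of the 8 B cell markers is at 0 in any library, and their summed level is between 5554 and 15182 TPM. In the aged table, olfactory receptor genes, which B cells should lack, give a level of background. Their median is 7.16 to 9.24 TPM in the non-CLL libraries, 1.08 to 2.71 TPM in CLL libraries 1, 2, 4 and 5, 9.66 TPM in CLL library 6, and 0 to 0.745 TPM in wild-type libraries. It is 0 in all young libraries.

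In young homozygous B cells, 6 of the 8 factors were called higher than in wild-type cells (Klf2, Klf3, Klf4, Klf6, Klf7 and Klf13) and 1 was called lower (Klf10). Over all 12219 genes tested, 38.4% were called higher and 12.6% lower, a split that became 24.3% and 22.5% once the libraries were rescaled by a trimmed mean. The 3 homozygous libraries lay above all 3 wild-type libraries for the same number of members, 6, against 44.5% of all genes, and below them for 1 member, against 16.9% of all genes. The median log2 change of the 8 members was 0.73, beside 0.18 over all genes tested. In bulk RNA, fewer cells of a type and less RNA per cell cannot be told apart.

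**Figure D1:**
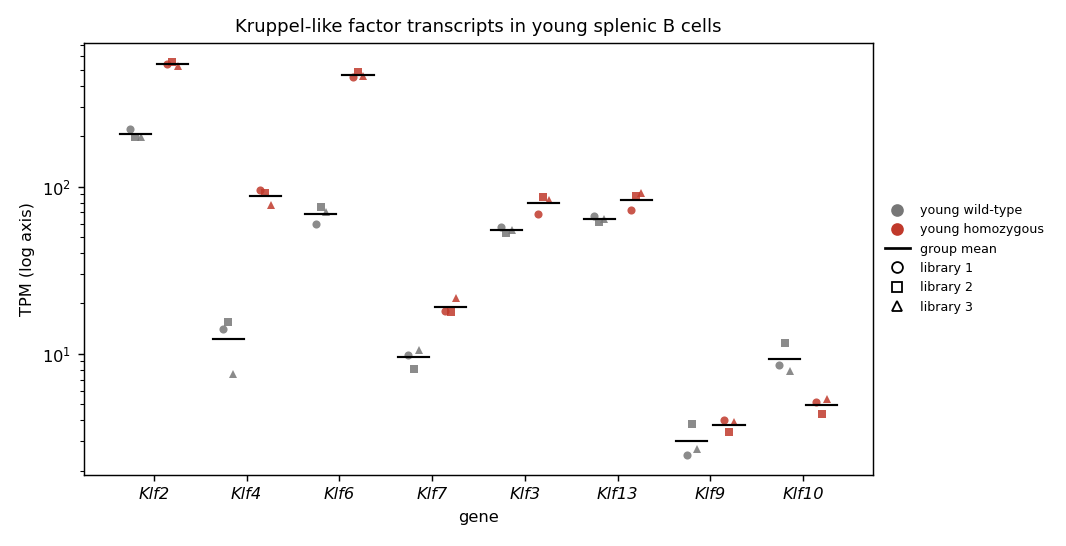
Level of the 8 Kruppel-like factors in each young library, in TPM on a log axis, with wild-type in grey, homozygous in red, 1 symbol per library number and a black bar at the group mean. Klf2, Klf4 and Klf6 of the 3 homozygous libraries lie above the wild-type libraries, and Klf10 lies below.

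Klf6 (chromosome 13, 5861489 to 5870393 in GRCm38.p6) measured 59.9, 75.1 and 70.1 TPM in libraries 1, 2 and 3 of the wild type and 451, 487 and 456 TPM in homozygous libraries 1, 2 and 3. Every homozygous library was far above every wild-type library. The means were 68.4 ± 7.79 TPM (SD, n = 3) and 465 ± 19.5 TPM (SD, n = 3), a log2 change of 2.75 (SE 0.10, limma adjusted p = 1.12e-06) or 6.74-fold. Klf6 ranked 15 of the 12219 genes by log2 increase.

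Klf4 (chromosome 4, 55527137 to 55532475) was at 14.0, 15.4 and 7.53 TPM in the wild-type and at 95.4, 91.9 and 77.1 TPM in the homozygous libraries. The groups did not overlap. The log2 change was 2.79 (SE 0.26, limma adjusted p = 0.000732), 6.93-fold, and Klf4 ranked 13 by log2 increase. Klf2 (chromosome 8, 72319062 to 72321654) was the most abundant member in either young group, at 221, 198 and 199 TPM in wild-type and 537, 553 and 525 TPM in homozygous libraries. It rose by a log2 change of 1.38 (SE 0.08, limma adjusted p = 1.44e-05), 2.61-fold, with no overlap of the groups.

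Klf7 (chromosome 1, 64029448 to 64122345), a family member best known from neurons, was at 9.82, 8.15 and 10.5 TPM in wild-type and 18.0, 17.8 and 21.5 TPM in homozygous libraries, a log2 change of 0.94 (SE 0.12, limma adjusted p = 0.000635). The repressor Klf3 (chromosome 5, 64803521 to 64832901) was at 57.6, 52.6 and 54.6 TPM against 68.9, 86.0 and 82.9 TPM, a log2 change of 0.52 (SE 0.10, limma adjusted p = 0.00261). Klf13 (chromosome 7, 63886351 to 63938915) was at 66.5, 61.2 and 63.6 TPM against 72.6, 87.4 and 90.9 TPM, a log2 change of 0.38 (SE 0.10, limma adjusted p = 0.0106). All 3 moved without overlap of the groups but by less than the first 3.

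Klf10 (chromosome 15, 38291464 to 38300711) was the member that fell. It was at 8.53, 11.6 and 7.94 TPM in wild-type and 5.15, 4.35 and 5.35 TPM in homozygous libraries, a log2 change of -0.79 (SE 0.16, limma adjusted p = 0.00345). Klf9 (chromosome 19, 23141226 to 23168129) was the lowest member, at 2.48, 3.79 and 2.71 TPM against 4.01, 3.42 and 3.89 TPM. These ranges overlap, and its log2 change of 0.27 did not pass the test (SE 0.16, limma adjusted p = 0.194).

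Rescaling the libraries by a trimmed mean moved the median over all genes, on the log2 scale, from 0.18 to 0.00. On that scale Klf6 was at 2.55, Klf4 at 2.60, Klf2 at 1.18, Klf7 at 0.75, Klf3 at 0.31 and Klf10 at -0.97, and these 6 stayed called. The Klf13 change was then 0.18 and was no longer called (limma adjusted p = 0.100). Without wild-type libraries 1 and 2, which leaves 1 wild-type library assumed to vary like the homozygous ones, the 5 members Klf2, Klf3, Klf4, Klf6 and Klf7 stayed called. The adjusted p was then 0.0656 for Klf10 and 0.0917 for Klf13. Wild-type libraries hold more myeloid transcripts, with 10 of 10 markers detected in every library and a summed level of 1498 to 5603 TPM against 219 to 498 TPM in homozygous libraries. Their part in the results was not tested.

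The makeup of the family differed as well. The 8 members summed to 416 to 440 TPM in wild-type and to 1252 to 1331 TPM in homozygous libraries. Klf2 gave 46.5% to 50.3% of that sum in wild-type and 41.5% to 42.9% in homozygous libraries, while Klf6 gave 13.6% to 17.6% and 36.0% to 36.6%. In wild-type cells the order by mean level was Klf2, Klf6, Klf13, Klf3, Klf4, Klf7, Klf10 and Klf9, and the ranges overlap between Klf6 and Klf13, between Klf4 and Klf7 and between Klf7 and Klf10. In homozygous cells the order was Klf2, Klf6, Klf4, Klf13, Klf3, Klf7, Klf10 and Klf9, and the ranges of Klf4, Klf13 and Klf3 overlap with their neighbours in that order.

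Genes of the same and of neighbouring pathways were read from lists. Their counts in young cells stand beside 38.4% of all genes called higher, 12.6% called lower and a median log2 change of 0.18. Among the other Klf and Sp genes, 9 of 18 were tested in young cells, 3 were called higher and 1 lower. Sp factors are relatives known for binding the GC box. Sp1 rose from 47.5 ± 6.33 TPM (SD, n = 3) in the wild type to 83.9 ± 10.7 TPM (SD, n = 3) in the mutant (log2 change 0.81). Sp4 and Sp3 had log2 changes of 0.54 and 0.47. Klf11, the close relative of Klf10, was called lower at a log2 change of -0.51. Sp2 (0.26, limma adjusted p = 0.0513) and Klf16 (0.08, adjusted p = 0.468) did not pass the test.

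Of 12 trafficking genes linked to Klf2, 6 were called higher and 4 lower, with a median log2 change of 0.28. S1pr1, the sphingosine-1-phosphate receptor that lymphocytes use to leave tissues, went from 172 ± 32.1 TPM in the wild type to 215 ± 8.65 TPM in the mutant (SD, n = 3 each), a log2 change of 0.33 (SE 0.12, limma adjusted p = 0.0491). Cr2, the complement receptor CD21, changed by 0.34 (adjusted p = 0.0461). The libraries of the groups overlap for both genes, and on the rescaled values neither was called (S1pr1 at 0.13, adjusted p = 0.365, and Cr2 at 0.13, adjusted p = 0.321). The integrin Itgb7 (-0.11, adjusted p = 0.338) did not pass the test, though it was called lower on the rescaled values (-0.31, adjusted p = 0.00748). The largest changes in the list were those of the chemokine receptors Cxcr4, higher by 1.51, and Cxcr3, which fell by 1.03 from 5.55 to 2.21 TPM, and of Fcer2a (CD23), higher by 0.75.

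Of 24 quiescence and antiproliferative genes, 17 were called higher and 1 lower, beside 38.4% and 12.6% of all genes. Their median log2 change was 0.46, beside 0.18 over all genes. The retinoblastoma gene Rb1 rose by 1.09, the antiproliferative gene Btg1 by 0.93, Foxo1 by 0.82 and the cyclin-dependent kinase inhibitor Cdkn1b by 0.61, and Cdkn2d fell by 0.44. Of 16 regulators that act upstream of Klf2 and Klf4, 13 were called higher, with Elk4 at 1.05, Mef2d at 0.86 and Map3k2, a kinase upstream of ERK5, at 0.85. Of 11 corepressors and coactivators that bind these proteins, 10 were tested, 5 were called higher (Ep300 at 0.78, Crebbp at 0.70 and Sin3a at 0.56 among them) and 1 lower (Fhl3, at -0.38). Of 11 genes of the TGF-beta pathway, 8 were called higher, with the inhibitors Tgif1 and Skil at 1.14 and 0.84 and the receptor Tgfbr1 at 0.72.

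Of 16 proliferation genes, 1 was called higher (Myc, at 1.69) and 4 lower (Ccnb1 at -0.85 and Tyms at -0.61 among them), with a median of -0.11. Immediate early genes, which many cell types switch on within minutes of stimulation or tissue handling, had 22 of 25 members called higher and a median of 1.42, and Fosb rose by 4.09. Their summed level was 7491 to 7807 TPM in homozygous and 2569 to 2973 TPM in wild-type libraries, the same split as that of Klf2, Klf4 and Klf6. Their part in these results was not tested.

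The lists depend on the scale of the libraries to different degrees, and their counts on the rescaled values stand beside 24.3% of all genes called higher and 22.5% lower. On that scale the immediate early genes had 18 called higher and a median of 1.22, the quiescence genes 14 called higher and 4 lower (median 0.27), and the upstream regulators 10 called higher (median 0.25). The trafficking genes had 4 called higher and 5 lower, the cofactors 3 and 3, the TGF-beta genes 4 and 1, and the proliferation genes 1 and 8 (median -0.31). The other Klf and Sp genes had 3 called higher and 1 lower, and their median turned from 0.08 to -0.12.

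**Figure D2:**
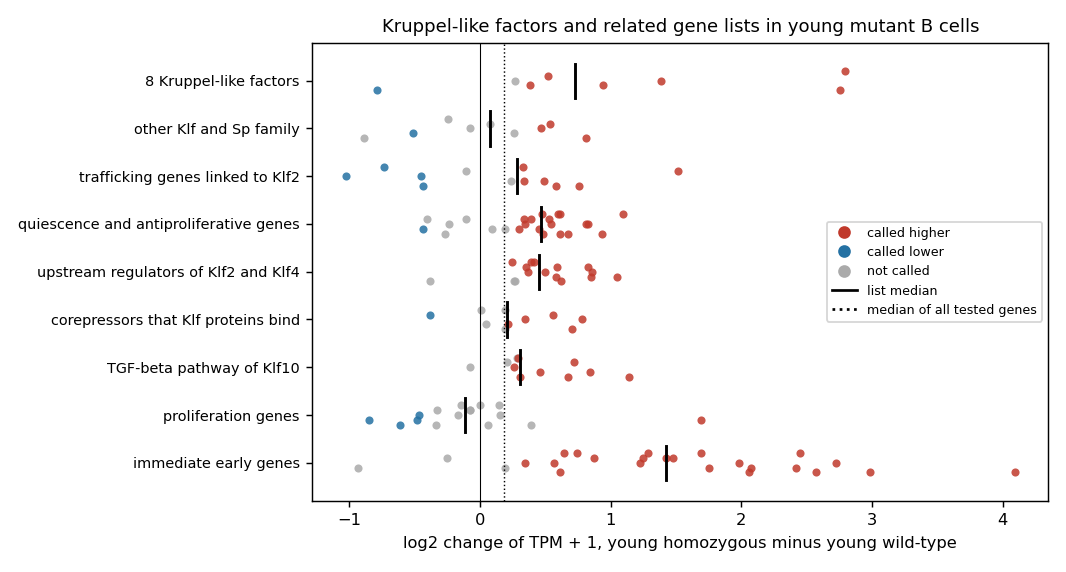
Log2 change of TPM + 1, young homozygous minus young wild-type, for the 8 Kruppel-like factors and 8 gene lists, with each point a gene, red called higher, blue called lower and grey not called. Black bars mark list medians (0.73 for the 8 factors, 1.42 for immediate early genes) and the dotted line the median of all tested genes, 0.18.

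In the aged table Klf13 had the highest mean of the members in all 3 groups, at 1246 to 2889 TPM in wild-type, 1315 to 2364 TPM in non-CLL and 664 to 1615 TPM in CLL libraries, and gave 82.4% to 93.1%, 72.0% to 82.4% and 27.7% to 86.9% of the summed level of the 8. Age and the scale of the tables cannot be told apart in the place of Klf13 in the order, since the tables were not made on 1 scale. Klf6 and Klf2 followed, and their ranges overlap in each aged group. Klf9 was the lowest in the non-CLL and CLL groups and in the wild-type group, where its range overlaps with that of Klf4. In 3 of the 4 non-CLL and 3 of the 5 CLL libraries Klf9 was below the background of its own library, so its level there cannot be told apart from background.

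**Figure D3:**
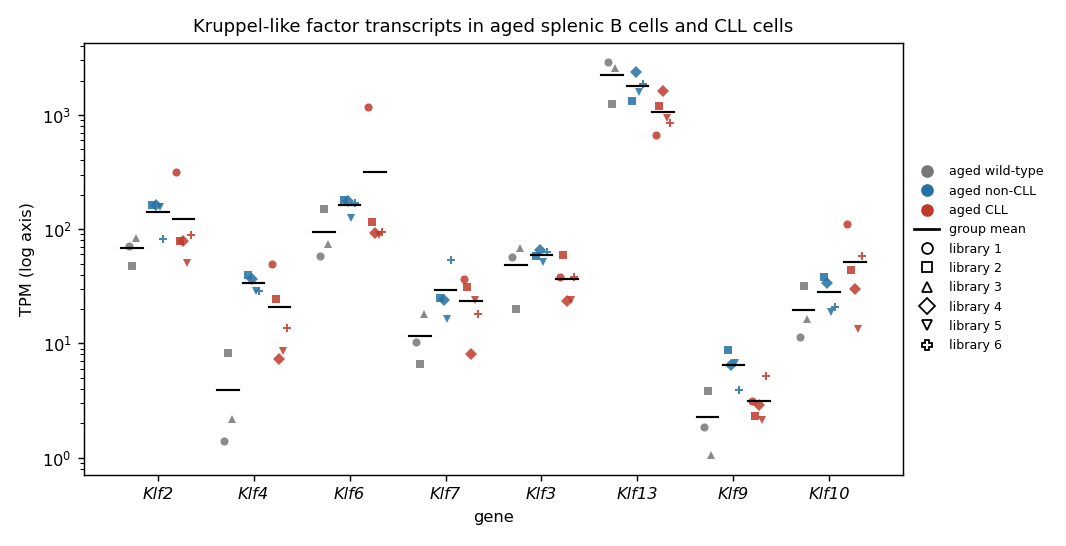
Level of the 8 Kruppel-like factors in each aged library, in TPM on a log axis, with wild-type in grey, non-CLL in blue, CLL in red, 1 symbol per library number and a black bar at the group mean. CLL library 1 lies apart for Klf6 (1181 TPM) and Klf2 (318 TPM), and Klf4 of the 4 non-CLL libraries (28.5 to 39.8 TPM) lies above the wild-type libraries.

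Between CLL cells and aged wild-type B cells, 1 member was called higher, Klf4, and 1 lower, Klf13. Over all 21202 genes tested, 2.94% were called higher and 0.604% lower, and 46.9% and 0.513% after rescaling. No member had its 5 CLL libraries all above or all below the 3 wild-type libraries, which was so for 29.0% and 2.55% of all genes. The median log2 change of the members was 0.72, beside 0.93 over all genes.

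Klf4 was at 49.0, 24.6, 7.36, 8.53 and 13.7 TPM in CLL libraries 1, 2, 4, 5 and 6 and at 1.41, 8.25 and 2.16 TPM in libraries 1, 2 and 3 of the wild type. Wild-type library 2 lay above CLL library 4, and the other wild-type libraries lay below all CLL libraries. The log2 change was 2.06 (SE 0.57, limma adjusted p = 0.0383). With the background of each library subtracted it was 1.62 and not called (adjusted p = 0.284), and without wild-type library 1 or 3 the adjusted p was 0.135 and 0.100. Without CLL library 1 and wild-type library 2 together it was 2.26 (adjusted p = 0.00952).

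Klf13 was at 664, 1203, 1615, 934 and 846 TPM in the CLL libraries and at 2889, 1246 and 2569 TPM in libraries 1, 2 and 3 of the wild type. Only wild-type library 2 lay within the CLL range. The log2 change was -1.06 (SE 0.31, limma adjusted p = 0.0453). On the rescaled values it was -0.69 and not called (adjusted p = 0.280), and the call was lost in 11 of 19 alternatives. Among these were the fits without CLL library 5 or 6 (adjusted p = 0.0622 and 0.0508) and without wild-type library 1 or 3 (adjusted p = 0.223 and 0.214). The fit on heterozygous mice only is the same as that without CLL library 6, and both are counted. A block by library number, whose numbers link different mice here, is counted too. Wild-type library 2 stands apart from wild-type libraries 1 and 3 in several summed levels. Its plasmacytoid dendritic cell markers sum to 248 TPM against 4.68 and 11.5 TPM, and its T cell markers to 714 TPM against 147 and 154 TPM. Its B cell markers sum to 6797 TPM against 15065 and 12856 TPM. Its immediate early genes sum to 2615 TPM against 1464 and 1497 TPM and its proliferation genes to 1952 TPM against 841 and 859 TPM. The part of these in the results was not tested. Without this library the changes of Klf4 and Klf13 were 2.64 and -1.44, both called, beside 3742 genes called higher and 516 lower of 22072.

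Klf10 was at 111, 44.2, 30.1, 13.3 and 57.8 TPM in CLL and at 11.3, 31.5 and 16.5 TPM in wild-type libraries. The ranges overlap, and the log2 change of 1.14 did not pass the test (SE 0.55, limma adjusted p = 0.118), though it was called without wild-type library 2 (1.52, adjusted p = 0.0141) or without CLL library 5 (1.53, adjusted p = 0.0227). Those fits called 3742 of 22072 and 365 of 20162 genes higher. Klf7 was at 36.8, 31.2, 8.09, 23.7 and 18.1 TPM against 10.4, 6.58 and 17.9 TPM (0.91, adjusted p = 0.115). Without CLL library 4 it was called (1.23, limma adjusted p = 0.0328), in a fit that called 7744 of 20885 genes higher. Klf3 was at 38.2, 59.8, 23.5, 23.9 and 38.3 TPM against 57.3, 20.1 and 68.3 TPM (-0.31, adjusted p = 0.569). The ranges of both genes overlap between the groups.

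CLL library 1 raised the CLL mean of Klf6 from 98.1 to 315 TPM and that of Klf2 from 73.9 to 123 TPM. Klf6 was at 1181 TPM in it and at 116, 92.8, 89.5 and 93.8 TPM in CLL libraries 2, 4, 5 and 6, which is 12.7 times their median. Of 6597 genes with a mean of at least 20 TPM over the CLL libraries, 0.167% had a ratio at least as high. Klf4 was at 4.41 times the median of the other CLL libraries, Klf2 at 4.04 times (318 TPM against 79.0, 78.3, 50.1 and 88.3 TPM) and Klf10 at 2.99 times, and 0.849%, 1.02% and 1.97% of genes had ratios at least as high. Klf13 was at 0.622 times, its lowest among the CLL libraries. Klf4 passed the minimum of 20 TPM only through library 1, with a mean of 13.5 TPM in the others, so its share is only a description. Library 1 had the highest summed level of immediate early genes of the CLL libraries, 5838 TPM against 2285 to 4865 TPM, but the list was split within it. Atf3 was at 1050 TPM against 5.96 to 22.4 TPM in the other CLL libraries, and Nr4a1 at 326 against 11.1 to 41.0 TPM. Jun (85.2 against 109 to 149 TPM), Egr1 (46.6 against 46.8 to 112 TPM) and Ier2 (81.5 against 134 to 238 TPM) were at their lowest there. The part of these genes in the Klf values was not tested.

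**Figure D4:**
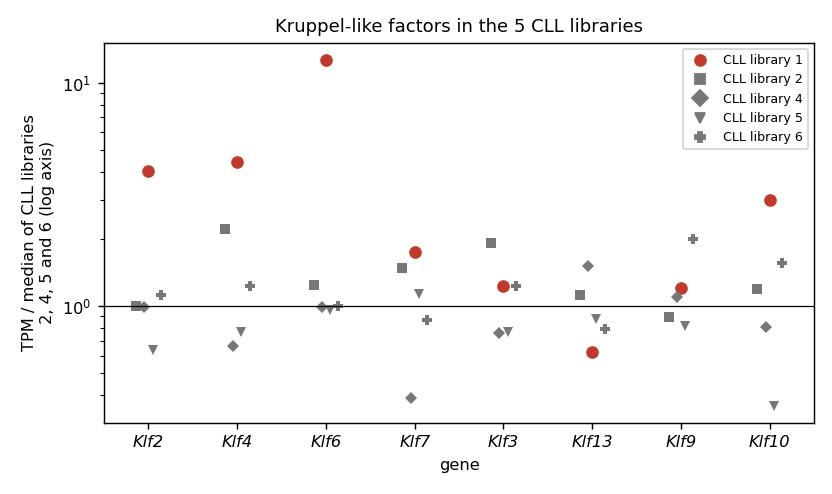
Level of each factor in the 5 CLL libraries divided by the median of CLL libraries 2, 4, 5 and 6, on a log axis, with library 1 in red. Library 1 lies at 12.7 for Klf6, 4.41 for Klf4 and 4.04 for Klf2, and within the range of the other libraries for Klf3 and Klf9.

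With all 5 CLL libraries, Klf6 against aged wild-type (58.6, 149 and 74.9 TPM) had a log2 change of 0.88 (SE 0.98, limma adjusted p = 0.532) and Klf2 (71.7, 47.1 and 84.4 TPM) one of 0.56 (SE 0.47, adjusted p = 0.378). Without CLL library 1 and wild-type library 2, Klf2 was at -0.10 and Klf6 at 0.55 (adjusted p = 0.163). Neither gene passed the test in CLL cells with these libraries.

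CLL and non-CLL cells of the same mice were compared next. Without the mouse in the fit, limma called 0 of the 8 members, and 3 had an unadjusted p under 0.05. Of all 22316 genes, 0.744% were called higher and 5.02% lower, a skew that turned after rescaling (1.31% higher and 0.583% lower). No member had all 5 CLL libraries above or below all 4 non-CLL libraries, as 1.17% and 7.51% of genes did. The median log2 change of the members was -0.62, beside -0.77 over all genes. With the mouse as a block, which drops CLL library 1, Klf4 was called lower in CLL cells, against 2.59% of all genes called lower and 0.538% called higher. With the block and rescaling these shares were 0.713% and 2.06%, and Klf4 was not called.

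Klf4 was at 24.6, 7.36, 8.53 and 13.7 TPM in the CLL cells and at 39.8, 36.9, 28.5 and 28.5 TPM in the non-CLL cells of mice 2, 4, 5 and 6. It was lower in CLL cells in 4 of 4 mice, with a mean log2 difference of -1.37 (SE 0.33, limma adjusted p = 0.0419 with the block, and -0.99 with adjusted p = 0.0982 without it and with library 1). With the block and the background subtracted the adjusted p was 0.0930, and with the block and rescaling the difference was -0.73 (adjusted p = 0.171). Klf4 thus keeps its direction and not its call.

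Klf6 was also lower in CLL cells in 4 of 4 mice, at 116, 92.8, 89.5 and 93.8 TPM against 179, 176, 124 and 171 TPM. Its difference was -0.72 with the block (SE 0.23, limma adjusted p = 0.0715), -0.05 after rescaling, and 0.00 (adjusted p = 0.999) with CLL library 1 and no block. Klf13 was lower in 4 of 4 mice, at 1203, 1615, 934 and 846 TPM against 1315, 2364, 1580 and 1881 TPM (-0.65, adjusted p = 0.0824 with the block), and at 0.02 after rescaling. Over all genes, 34.0% were lower and 4.36% higher in CLL cells in all 4 mice, so 3 of 8 members is near the share of all genes.

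Klf2 was lower in the CLL cells of mice 2, 4 and 5 (79.0, 78.3 and 50.1 TPM against 161, 163 and 156 TPM) and not in those of mouse 6, the homozygous one (88.3 against 82.8 TPM). The difference with the block was -0.90 (SE 0.28, limma adjusted p = 0.0689). Klf3 was at 59.8, 23.5, 23.9 and 38.3 TPM against 58.7, 65.8, 51.7 and 62.8 TPM and was lower in 3 of 4 mice (-0.80, adjusted p = 0.0902). Klf7 and Klf10 were each lower in 2 of 4 mice. Klf9 was lower in 3 of 4. In the fit without mice and without CLL library 6 it was called lower (-1.02, limma adjusted p = 0.0155), at levels near background. That fit called 10736 of 22078 genes lower. Klf10 in mouse 6 went from 20.9 TPM in non-CLL to 57.8 TPM in CLL cells. The mouse is the only one of its genotype, so genotype and mouse cannot be told apart.

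**Figure D5:**
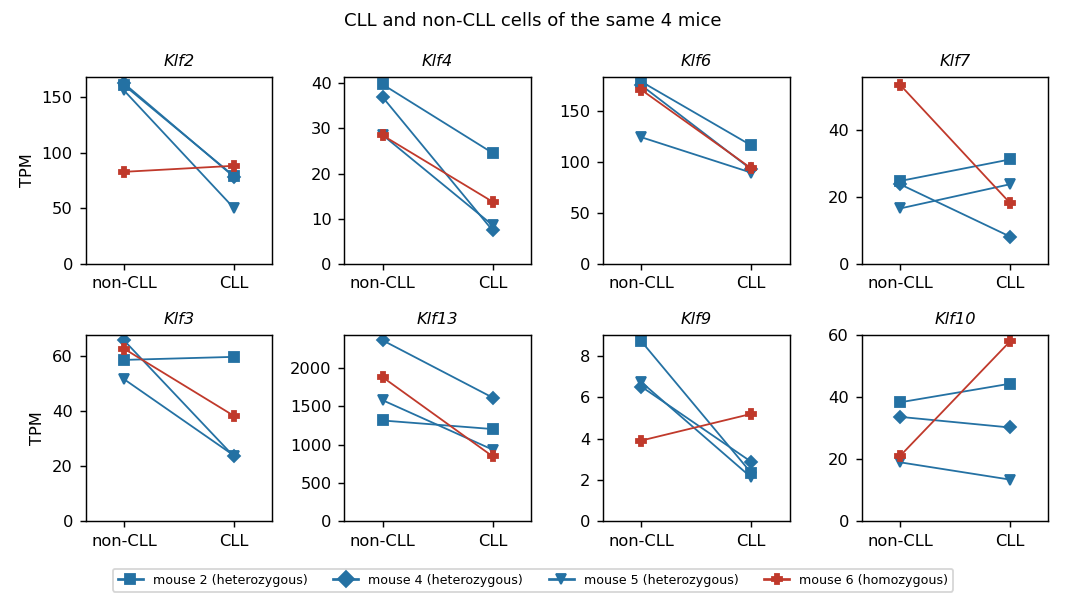
Level of each factor (TPM, linear axes from 0) in non-CLL and CLL cells of mice 2, 4, 5 (heterozygous, blue) and 6 (homozygous, red), with a line per mouse. Klf4, Klf6 and Klf13 fall from non-CLL to CLL cells in 4 of 4 mice, and Klf2 in mice 2, 4 and 5.

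The non-CLL libraries also hold more plasmacytoid dendritic and NK cell transcripts than the CLL libraries. Their 5 plasmacytoid dendritic cell markers sum to 262 to 1200 TPM against 11.7 to 58.5 TPM in CLL libraries, with 5 of 5 called lower in CLL cells and none at 0 in a non-CLL library. Their 5 NK cell markers sum to 128 to 681 TPM against 9.45 to 53.2 TPM, and their background is higher except against CLL library 6. The summed myeloid markers overlap, at 354 to 905 TPM against 247 to 1752 TPM, the highest in CLL library 2, and 0 of 9 were called. The summed T cell markers overlap too, at 344 to 564 TPM against 150 to 573 TPM, and 3 of 8 were called lower in CLL cells. The part of these in the Klf4, Klf6 and Klf13 differences was not tested.

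Between non-CLL and aged wild-type B cells, 5 members were called higher (Klf2, Klf4, Klf6, Klf7 and Klf9). Over all 22150 genes, 55.8% were called higher and 1.48% lower (51.9% and 2.56% after rescaling), so this count is near the share of all genes. All non-CLL libraries lay above all wild-type libraries for 2 members, Klf4 and Klf9, as for 53.7% of genes, and below for none of the members, beside 2.33% of genes. The median log2 change of the members, 0.96, was under that of all genes, 1.65. These comparisons share their wild-type libraries with the CLL comparison.

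The non-CLL libraries also differ from wild-type in other transcripts. Immediate early genes had 16 of 25 called higher (median log2 change 1.57), near the 55.8% and the median of 1.65 of all genes. Their summed level was 3453 to 5605 TPM against 1464 to 2615 TPM. Also called higher were 6 of 9 myeloid and 5 of 8 T cell markers, both near that share, and 4 of 5 NK cell and 5 of 5 plasmacytoid dendritic cell markers. Their summed levels were 354 to 905 against 43.6 to 299 TPM, 344 to 564 against 147 to 714 TPM, 128 to 681 against 6.998 to 32.6 TPM, and 262 to 1200 against 4.68 to 248 TPM. Their part in the results was not tested.

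Klf4 had the largest of these changes. It was at 39.8, 36.9, 28.5 and 28.5 TPM in non-CLL libraries 2, 4, 5 and 6 against 1.41, 8.25 and 2.16 TPM, a log2 change of 3.05 (SE 0.46, limma adjusted p = 0.000164). Every non-CLL library was above every wild-type library and above the background of its own library. With the background subtracted the change was 2.68 (adjusted p = 0.0564). Klf2 was at 161, 163, 156 and 82.8 TPM against 71.7, 47.1 and 84.4 TPM, a log2 change of 1.03 (SE 0.31, limma adjusted p = 0.0146), with library 6 below wild-type library 3.

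Klf6 was at 179, 176, 124 and 171 TPM against 58.6, 149 and 74.9 TPM (0.88, SE 0.32, adjusted p = 0.0348), and wild-type library 2 lay within the non-CLL range. Klf7 was at 24.7, 23.7, 16.5 and 53.5 TPM against 10.4, 6.58 and 17.9 TPM (1.24, SE 0.45, adjusted p = 0.0328). Klf9 was at 8.72, 6.53, 6.74 and 3.91 TPM against 1.85, 3.87 and 1.05 TPM (1.25, SE 0.41, adjusted p = 0.0229), and at -1.46 once the background was subtracted. With the background subtracted, the limma adjusted p of the 5 ran from 0.0564 (Klf4) to 0.447 (Klf7). Klf4 kept its call without any 1 library, while Klf2 lost it without wild-type library 2 (0.80, adjusted p = 0.0624), Klf7 without wild-type library 1 or 2 or non-CLL library 6, and Klf6 and Klf9 without wild-type library 1 or 3 or non-CLL library 2 or 4. Klf9 also lost it without non-CLL library 5. Klf3 (0.46), Klf10 (0.54) and Klf13 (-0.27) did not pass the test.

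Of the related lists, 12 of 18 other Klf and Sp genes were called higher in non-CLL cells against wild-type, beside 55.8% of all genes, and 4 of 24 quiescence genes were called higher and 1 lower. In CLL cells against wild-type, the quiescence list had 2 of 24 called higher and 1 lower, beside 2.94% and 0.604% of all genes. Cdkn1b had a mean of 62.7 TPM in the 5 CLL libraries against 27.9 ± 20.6 TPM (SD, n = 3), a log2 change of 1.37 (SE 0.38, limma adjusted p = 0.0339). Pdcd4, an inhibitor of translation, rose by 1.46, and Slfn2, which keeps T cells quiescent, fell by 1.30. Of the TGF-beta list, Tgfbr2 fell by 1.55, from 257 ± 42.6 to 98.7 ± 49.0 TPM. Of the immediate early genes 3 of 25 were called higher, Dusp1, Egr1 and Myc. Foxo1 (-0.57, adjusted p = 0.429), S1pr1 (0.89, adjusted p = 0.552), Itgb7 (1.23, adjusted p = 0.207) and Cr2 (-2.33, adjusted p = 0.318) did not pass the test. S1pr1 was at 404 TPM in CLL library 1 and at 72.9 to 139 TPM in the other CLL libraries, the same library that was high for Klf2 and Klf6.

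Over the 12 aged libraries, the genes whose pattern was most like that of each member were taken by Pearson's r of log2(TPM + 1) among 6782 genes with a mean of at least 20 TPM. They were S100a10 (0.956) and Rnf113a2 (0.909) for Klf2, Tyrobp (0.921) and Hmgb2 (0.902) for Klf4, and Vgll4 (0.938) and Dusp14 (0.920) for Klf6. For Klf13 they were Chmp3 (0.946) and Lmo2 (0.939), for Klf3 Ralgapa1 (0.919) and Fam149b (0.900), for Klf10 Rassf4 (0.906) and Hsd3b7 (0.899), and for Klf7 Gapt (0.852) and Rgs18 (0.826). Tyrobp encodes an adaptor of myeloid and NK cells. CLL library 1 lies above all other aged libraries for Klf6 (1181 TPM) and Klf2 (318 TPM), so it can weigh heavily on their values of r. The 12 libraries share 4 mice, fall into 3 groups and differ in background, and the highest of 6782 values is high by choice, so these are descriptions.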

How the data were processed

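RNA-seq was used from 18 libraries in 5 groups of the series' 30 samples; the 12 chromatin samples were not analysed here. The values are TPM, which the authors deposited in 1 table for the young and 1 for the aged libraries, and the depth is unknown. Per the submitters' processing notes the build was mm10 and the tools were MACS2 2.2.0, STAR 2.4.0.1 and Bowtie2 2.3.4.1, with no role given for each. Not given in the sources used here are the quantification, its strand setting and the annotation. B cells were isolated from spleen with magnetic beads, at least 85% pure in the aged set, per the labels' protocols. Left out were 25 aged and 26 young gene names that a spreadsheet had turned into dates and 887 young entries with no name, which hold 4.44% to 9.36% of TPM per library. Tests used limma 3.58.1 under R 4.3.3 (trend and robust, two-sided, 2 groups per fit), a pseudocount of 1 and Benjamini-Hochberg adjustment over all genes, and the procedure was tested on simulated data.

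The members and lists were chosen with earlier results of these data known. Named were the 8 members, other Klf and Sp genes with a group mean of at least 20 TPM, S1pr1, Itgb7, Cr2, Foxo1 and Cdkn1b, and up to 3 called genes per list with the largest log2 change in a comparison. Cdkn2d and Fhl3, each the single gene of its list called lower, were named after their values were seen. So were Atf3, Nr4a1, Jun and Ier2 of the immediate early genes. One gene that the rule names is not reported here. CLL and non-CLL numbers pair because they mark the same mouse, per the series' design text. The deviations of same-numbered libraries from their group means correlated at -0.023, 0.018, 0.105 and 0.124 for mice 2, 4, 5 and 6. The highest correlation with a library of another number was 0.042, 0.145, 0.01 and 0.03, above that of the same mouse for mice 2 and 4. Alternatives were another pseudocount, other minimum levels, rescaling, library weights, a fit on all 3 aged groups, blocks, background subtraction, heterozygous mice only, and leaving out libraries. Leaving out CLL library 1 with wild-type library 2, and the mouse block joined to rescaling or background subtraction, were chosen after seeing the data. Sequences and gene positions are from RefSeq tables of GRCm38.p6.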

Additional observations from a re-analysis of the deposited data

Results flagged for a closer look

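Groups of 4 or 5 aged libraries were searched for a library whose gap to its nearest neighbour, as a share of the group's range of log2(TPM + 1), exceeds Dixon's 95% critical value. Chance gives such a gap in about 1 of 20 groups, and 3 of the 16 groups searched had one. Klf6 in CLL library 1, at 1181 TPM, had a gap of 0.899 of the range of its group. Klf2 in non-CLL library 6, at 82.8 TPM and the lowest of its group, had a gap of 0.941. Klf6 in non-CLL library 5, at 124 TPM and the lowest of its group, had a gap of 0.874. The cause of these gaps was not tested.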

How the results depend on the processing

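In the young comparison Klf2, Klf3, Klf4, Klf6 and Klf7 kept their direction and call in all alternatives run (14, and 13 for Klf7). Klf10 lost its call in 1 of 13 and Klf13 in 2 of 14, and Klf9 was called with library weights. The replicate block, by library numbers that mark no shared animal, changed no call there (same-number correlations -0.102, 0.242 and 0.316). Over all genes 6237 were called, 3830 with a minimum mean of 20 TPM and 2858 without wild-type libraries 1 and 2.

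For CLL cells against aged wild-type, 2 members and 751 genes were called. Members called were 0 with no minimum, with a minimum of 20 TPM, with no trend, with background subtracted and with the replicate block, and 1 with rescaling and with heterozygous mice only. Genes called were 8853 with a pseudocount of 0.1, 457 with no minimum, 107 with a minimum of 20 TPM, 10263 with rescaling, 135 with no trend, 12299 with library weights, 101 with background subtracted, 6712 with all 3 aged groups, 2 with the replicate block, whose numbers link different mice here, 5643 with heterozygous mice only, and 4873 without CLL library 1 and wild-type library 2. Leaving out 1 library at a time gave 0 to 3 members and 345 to 8222 genes. Uncalled changes that turned were Klf3 (0.0592 with rescaling, 0.48 with the replicate block, -0.84 to 0.0224 when leaving out 1 library), Klf9 (-0.94 with background subtracted, -0.0074 with the block) and Klf2 (-0.10 without CLL library 1 and wild-type library 2).

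For CLL against non-CLL cells, 0 members and 1287 genes were called. Members called were 4 with library weights, 1 with the replicate block and 1 with heterozygous mice only, and genes called were 256 with a pseudocount of 0.1, 220 with a minimum of 20 TPM, 422 with rescaling, 156 with no trend, 11705 with library weights, 348 with background subtracted, 3387 with all 3 groups, 697 with the block, 619 and 266 with the block joined to rescaling or background subtraction, and 11173 with heterozygous mice only. Leaving out 1 library gave 0 to 1 member and 325 to 11118 genes. Klf6 turned to -0.0014 with a pseudocount of 0.1, -0.17 with library weights, -0.72 with the replicate block, -0.70 with the block and background subtracted, -0.0483 with the block and rescaling, and ranged from -0.72 to 0.21 when leaving out 1 library. With rescaling Klf2 was at 0.31, Klf3 at 0.0083 and Klf7 at 0.42. With block and rescaling Klf7 was at 0.11 and Klf13 at 0.0245, and with heterozygous mice only Klf7 was at 0.0343.

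For non-CLL cells against aged wild-type, 5 members and 12681 genes were called. Members called were 0 with a minimum of 20 TPM and with background subtracted, 2 with rescaling, 3 with all 3 groups and 2 to 4 when leaving out 1 library. Genes called were 33 with a minimum of 20 TPM and 43 with background subtracted. Klf3 turned to -0.0207 with library weights and ranged from -0.0708 to 0.79 when leaving out 1 library, and Klf9 turned to -1.46 with background subtracted. The cause of each change was not tested. At a minimum of 20 TPM, Klf4 in non-CLL cells against wild-type lost its call (adjusted p = 0.0789), Klf4 was not tested in CLL cells against wild-type, and Klf9 was tested in no aged comparison. With TPM alone, counting error cannot be given.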
